A study of Mus musculus with 72 samples.

Results

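The question addressed here was how far the response of mouse follicles to FSH24 depended on its dose. For every gene, the change with FSH24 at 10 ng/ml against untreated controls, less the change with FSH24 at 1 ng/ml against its own untreated controls, was measured as one value on the log2 scale, here called the dose difference. A dose difference above 0 means a higher value at 10 ng/ml relative to controls than at 1 ng/ml relative to controls. It drew on 12 of the 18 libraries of the series, which were 48 of its 72 deposited samples because each library was run on 4 lanes. The groups were follicles with FSH24 at 10 ng/ml (numbers 2, 3 and 4), the untreated follicles of those numbers, follicles with FSH24 at 1 ng/ml (numbers 1, 5 and 6) and the untreated follicles of those numbers, with 3 libraries each. FSH24 is the fully glycosylated form of follicle-stimulating hormone (FSH). The other 6 libraries had received FSH21, the hypoglycosylated form, at the same doses.

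All groups were isolated mouse ovarian follicles, called early secondary in the design text, kept for 24 h in a serum-free medium with albumin, fetuin and an insulin-transferrin-selenium supplement, so insulin was present in every group, controls included. The labels give no strain, age or genotype. They call the libraries biological replicates without naming animals or cultures. The p-values therefore reflect only how far these libraries differ from each other, and that spread may be technical in part. The numbers of the 2 doses do not overlap, so dose and number set cannot be told apart except through each dose's own controls.

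FSH binds a receptor on the granulosa cells that surround the oocyte. The receptor couples through Gs to adenylyl cyclase, and the resulting cAMP activates protein kinase A, which changes transcription through CREB and other factors. In granulosa cells FSH is known for promoting growth, steroid and inhibin synthesis and the cells' support of the oocyte, and cAMP phosphodiesterases and RGS proteins limit the signal.

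Libraries held 17512962 to 22509759 counts. Levels are in CPM, counts relative to the TMM-scaled library total. Mean values carry SDs and fold changes carry standard errors. Differences were tested with edgeR's quasi-likelihood test on all 18 libraries with the number as a block, Benjamini-Hochberg adjusted over 18727 genes, and genes with an adjusted p below 0.05 are said to be called. The summed level of 25 oocyte transcripts was 7034 to 7683 CPM with FSH24 at 10 ng/ml, against 8089 to 8500 CPM in its controls. It was 6904 to 7788 CPM with FSH24 at 1 ng/ml, against 6604 to 7851 CPM in its controls. The ranges did not overlap at 10 ng/ml and overlapped at 1 ng/ml. The granulosa transcripts Inha and Amh were abundant in both FSH24 groups, Inha at 3027 ± 123 CPM and Amh at 898 ± 89.7 CPM under the higher dose and at 3098 ± 726 CPM and 785 ± 175 CPM under the lower one (mean ± SD over 3 libraries). Markers of immune cells summed to at most 6.04 CPM and those of red blood cells to at most 0.825 CPM in the 12 libraries. The FSH24 library numbered 6 at 1 ng/ml stood apart and held the surface epithelium transcripts Krt19 at 11.1 CPM, Upk3b at 19.5 CPM and Krt7 at 5.25 CPM, each at most 0.796 CPM in the other 11 libraries.

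Many genes, granulosa, cholesterol and ribosomal ones among them, had a dose difference of FSH24. At 1 ng/ml against controls no gene of any kind was called by edgeR. The dose difference was called for 1180 of 18727 genes (6.3%), 677 with a higher value at 10 ng/ml (3.62%) and 503 with a lower one (2.69%). At an unadjusted p under 0.05 there were 3700 genes (19.8%). It reached 2-fold in 103 of the higher and 77 of the lower genes, and the median size of the called differences was 0.53 on the log2 scale. FSH24 at 10 ng/ml against its controls had 2547 called genes (13.6%), 1502 higher (8.02%) and 1045 lower (5.58%). FSH24 at 1 ng/ml against its controls had 0 called genes with edgeR, while 1802 genes (9.62%) had an unadjusted p under 0.05 and DESeq2 called 13. The 677 higher genes had a median change of 0.47 at 10 ng/ml and of -0.05 at 1 ng/ml. The 503 lower genes had medians of -0.51 at 10 ng/ml and 0.10 at 1 ng/ml. In 1116 of the 1180 called genes the change at 10 ng/ml was the larger of the 2 in size, a number that the call on the dose difference favours, against 11243 of all 18727 genes tested. With upper-quartile scaling the dose difference had 585 higher and 574 lower genes, and FSH24 at 10 ng/ml against its controls had 1272 higher and 1245 lower, so the excess of higher genes depended on the scaling.

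Without the number as a block, 458 genes (2.45%) were called, 226 higher (1.21%) and 232 lower (1.24%), and 449 of them were among the 1180. Leaving out 1 library at a time moved the count to 585 without the untreated library numbered 4, 632 and 645 without the untreated libraries numbered 6 and 5, 650 and 673 without the FSH24 libraries numbered 4 and 2 at 10 ng/ml and 771 without the untreated library numbered 2. The other 6 such fits gave 811 to 1293. In bulk RNA, fewer cells of a type and less RNA per cell cannot be told apart, which holds for every level given here.

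**Figure D1:**
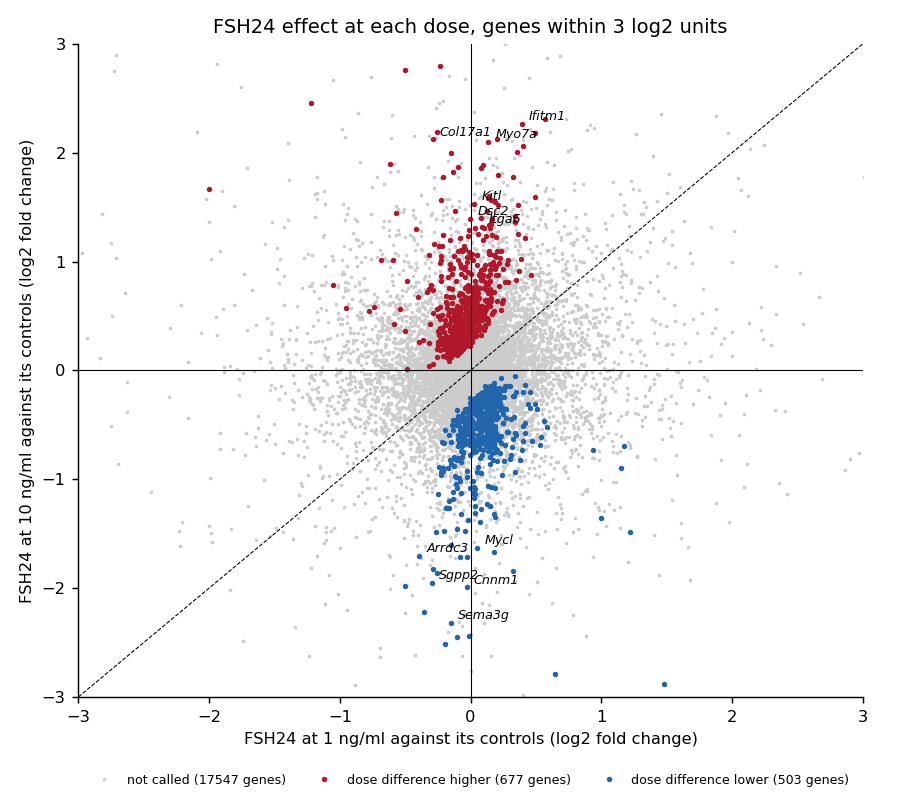
Change with FSH24 at 10 ng/ml against its controls (vertical axis, log2) plotted over the change with FSH24 at 1 ng/ml against its controls (horizontal axis, log2) for each gene tested, with 677 genes called higher in red, 503 called lower in blue and the rest in grey. The dashed line marks equal changes, 120 genes lie outside the axes, and the called genes lie mainly above or below the middle of the plot, with little change at 1 ng/ml.

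Among granulosa transcripts the strongest dose difference belonged to Kitl, which encodes KIT ligand, the granulosa factor that acts on the KIT receptor of the oocyte (ENSMUSG00000019966, chr10:100015630-100100416, plus strand, a protein-coding gene). Kitl was at 369, 375 and 427 CPM in the follicles with FSH24 at 10 ng/ml numbered 2, 3 and 4, against 121, 144 and 141 CPM in the untreated follicles of the same numbers. At 1 ng/ml it was at 169, 156 and 157 CPM in numbers 1, 5 and 6, against 157, 155 and 160.2 CPM in their controls. The libraries at 10 ng/ml were all above the other 9. Among those 9, the untreated libraries numbered 2, 3 and 4 were all below the other 6, and FSH24 at 1 ng/ml overlapped its own controls. The dose difference was 1.50 ± 0.08 (SE; adjusted p = 2.1e-08 by edgeR), a 2.83-fold larger ratio to controls at 10 ng/ml. The change at 1 ng/ml was 0.03 with a 95% interval of -0.09 to 0.15.

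Itga6, the integrin alpha 6 chain of laminin receptors, and Dsc2, a desmosomal cadherin, showed the same pattern. Itga6 (chr2:71745616-71858416, plus strand) had 1702, 1646 and 1814 CPM with FSH24 at 10 ng/ml, against 758, 632 and 686 CPM in its controls, and 799.6, 719.9 and 696 CPM at 1 ng/ml, against 734, 749 and 608 CPM in the controls of that dose. Its dose difference was 1.23 ± 0.09 (adjusted p = 1.9e-06 by edgeR). Dsc2 had 31.8, 26.6 and 30.1 CPM at 10 ng/ml, against 13.6, 10.0 and 10.2 CPM, and 13.0, 10.1 and 10.7 CPM at 1 ng/ml, against 11.5, 12.5 and 9.94 CPM. For both genes every library at 10 ng/ml lay above every other library, and the libraries at 1 ng/ml overlapped the range of the controls. The Dsc2 dose difference was 1.40 ± 0.15 (adjusted p = 3.1e-05 by edgeR).

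**Figure D2:**
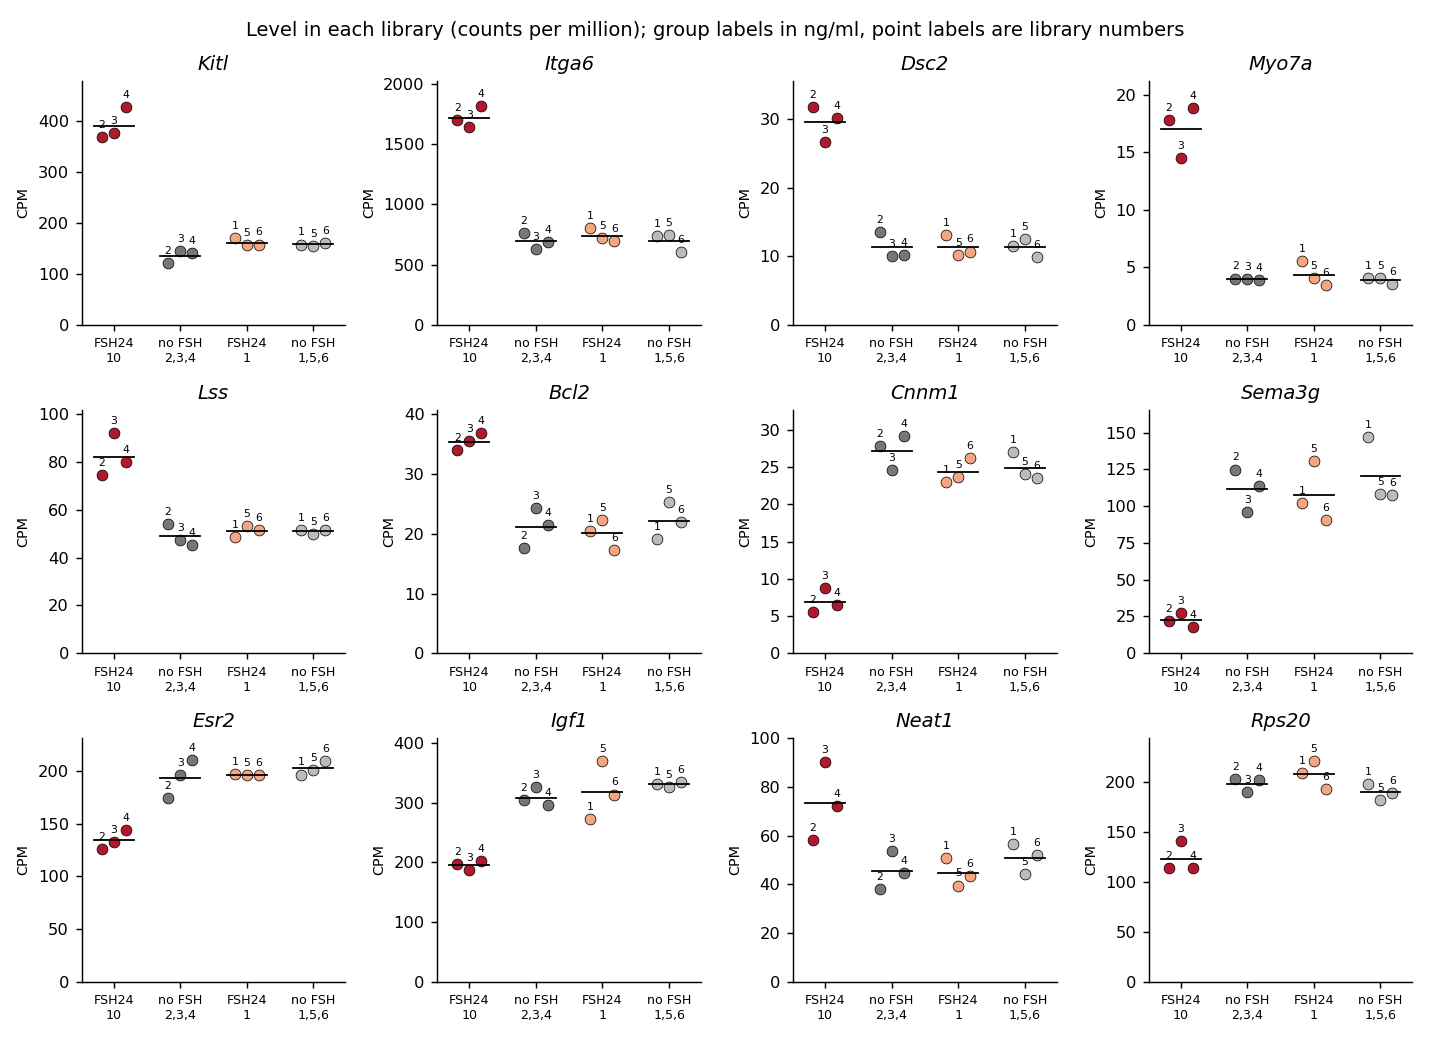
Level in CPM (vertical axes, from 0) of 12 genes in each library of FSH24 at 10 ng/ml, its controls, FSH24 at 1 ng/ml and its controls, left to right, with points labelled by library number and bars at the group means. In each panel the 3 libraries at 10 ng/ml lie outside the range of the other 9, above it for Kitl, Itga6, Dsc2, Myo7a, Lss, Bcl2 and Neat1 and below it for Cnnm1, Sema3g, Esr2, Igf1 and Rps20. The genes were picked from those called on these same libraries, which favours such separation.

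The gene lists used from here on were chosen with earlier results of these data known, and no list was tested as a set. Their called shares, given beside that of all genes tested, are thus descriptive. Among 14 granulosa identity genes, 6 had a higher and 1 a lower value in the dose difference (50%, beside 6.3% of all genes tested). Their median was 0.22, beside 0.00 over all genes tested. Besides Kitl, the higher ones were the transcription factors Gata4 (0.37 ± 0.07), Gata6 (0.47 ± 0.08), Foxl2 (0.40 ± 0.10) and Emx2 (0.41 ± 0.08) and the anti-Mullerian hormone receptor gene Amhr2 (0.34 ± 0.08), with adjusted p between 0.0017 and 0.024 by edgeR for these 5. Gata4 was at 457, 451 and 512 CPM at 10 ng/ml, against 364, 329.8 and 358 CPM, and at 379, 382 and 357 CPM at 1 ng/ml, against 377, 352 and 343 CPM. These changes were of a fraction of a doubling, and the calls for Foxl2 and Amhr2 ended without the block (adjusted p = 0.14 and 0.34 by edgeR). They also ended without some single libraries, among them the untreated library numbered 5 for both genes.

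The lower one was Esr2, the estrogen receptor beta of granulosa cells. Esr2 had 126, 133 and 144 CPM at 10 ng/ml, against 174, 196 and 210.3 CPM, and 197, 197 and 196 CPM at 1 ng/ml, against 197, 201 and 210.1 CPM, a dose difference of -0.48 ± 0.07 (adjusted p = 0.00041 by edgeR). The libraries at 10 ng/ml lay below the rest with no overlap. The summed level of the 14 genes was 7006 to 7450 CPM at 10 ng/ml, against 5991 to 7452 CPM, and 5645 to 7319 CPM at 1 ng/ml, against 6393 to 7295 CPM, so the sums overlapped between all groups.

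Of 20 genes for the FSH receptor and its cAMP transducers, 0 had a higher and 2 a lower value (10%, beside 6.3% of all genes tested). Their median was 0.01. Fshr, the FSH receptor, was at 17.4, 23.6 and 20.4 CPM at 10 ng/ml, against 21.4, 24.6 and 28.8 CPM, and at 24.5, 32.3 and 17.3 CPM at 1 ng/ml, against 25.9, 31.1 and 18.4 CPM. Its dose difference of -0.25 (95% interval -0.55 to 0.04) was not called, and the groups overlapped. The called genes were Adcy7, an adenylyl cyclase (-0.66 ± 0.15, adjusted p = 0.017 by edgeR), and Arrb1, beta-arrestin 1 (-0.28 ± 0.08, adjusted p = 0.045). Neither was called without the block (adjusted p = 0.34 and 0.15), nor without the FSH24 library numbered 4 at 10 ng/ml.

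Among 15 phosphodiesterase and feedback genes, Rgs2 had a lower and Pkia a higher value (13.3%, beside 6.3% of all genes tested). Rgs2 encodes a regulator of G protein signalling and had 437, 461 and 414 CPM at 10 ng/ml, against 695, 615 and 732 CPM, and 618, 770.0 and 608 CPM at 1 ng/ml, against 639, 651 and 607 CPM. All libraries at 10 ng/ml were below all others, and the dose difference was -0.70 ± 0.10 (adjusted p = 0.00067 by edgeR). Pkia, an inhibitor of protein kinase A, differed by 0.88 ± 0.20 (adjusted p = 0.013), a call that ended without the FSH24 library numbered 2 at 10 ng/ml or the untreated library numbered 4. Pde4b, a cAMP phosphodiesterase, had a dose difference of 0.80 ± 0.36 that was not called. Of 16 early-response genes of cAMP signalling, 0 were called after 24 h by edgeR, beside 6.3% of all genes tested. Their median was 0.06, and a list of this size cannot tell 0 from that share.

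Of 17 FSH-induced granulosa genes 2 were higher, the lipoprotein receptor gene Scarb1 (0.45 ± 0.10) and the IGF-binding protein protease gene Pappa (1.36 ± 0.35), and the list had a median of 0.31. That is 11.8% of the list, beside 6.3% of all genes tested. At 10 ng/ml against controls 5 of the 17 were higher and 4 lower, beside 8.02% and 5.58% of all genes tested. Neither Scarb1 nor Pappa was called without the block (adjusted p = 0.11 and 0.15 by edgeR). Of 13 steroid synthesis genes 2 were higher and 0 lower (15.4%), with a median of 0.33. They were Cyp17a1 and Hsd17b7 (0.63 ± 0.11), a gene also on the list of cholesterol synthesis. At 10 ng/ml against controls 6 of the 13 were higher and 0 lower, beside the same shares of 8.02% and 5.58%. Cyp19a1, aromatase, had 17.9, 21.4 and 11.8 CPM at 10 ng/ml, against 10.6, 5.59 and 11.3 CPM, and 11.1, 9.28 and 5.52 CPM at 1 ng/ml, against 11.4, 7.96 and 7.21 CPM. The libraries at 10 ng/ml lay above all others, the lowest of them only narrowly, and the dose difference of 0.94 ± 0.49 was not called (adjusted p = 0.35, 95% interval -0.17 to 2.05). Star, the mitochondrial cholesterol importer, had 13.7, 23.9 and 11.3 CPM at 10 ng/ml, against 7.53, 6.74 and 9.68 CPM, with the library numbered 3 the highest of all. Its dose difference of 0.70 ± 0.28 was not called (adjusted p = 0.18 by edgeR). Star was called without the FSH24 library numbered 4 at 10 ng/ml, the untreated library numbered 4 or both with number 4. With no filter on low counts Star and Cyp19a1 were called.

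Inhbb, the inhibin beta B subunit, also varied among the treated libraries, with 367, 874 and 336 CPM at 10 ng/ml, against 222, 132 and 184 CPM, and 292, 202 and 160.0 CPM at 1 ng/ml, against 195, 151 and 102 CPM. The library numbered 3 had more than both others at 10 ng/ml together, and the dose difference of 0.89 ± 0.60 was not called (adjusted p = 0.49). Fst, which encodes the activin antagonist follistatin, had 77.4, 130.2 and 78.8 CPM at 10 ng/ml, against 189.7, 158 and 172 CPM. Its dose difference of -0.87 ± 0.30 was not called (adjusted p = 0.15 by edgeR). Fst was called by DESeq2, without robust estimation, and without the untreated library numbered 3 or number 3 as a whole. With no filter on low counts Fst, Inhbb and Cyp11a1 were called. Lhcgr, the luteinizing hormone receptor, and Cyp11a1, the side-chain cleavage enzyme, were highest in number 1 of the 1 ng/ml set in treated and untreated follicles alike. There Lhcgr was at 5.85 CPM with FSH24 and 7.15 CPM without, and Cyp11a1 at 7.76 CPM with FSH24 and 9.21 CPM without, while their dose differences of 1.15 ± 0.56 and 1.68 ± 0.79 were not called. Cyp17a1, the androgen-producing enzyme of theca cells, had 4.23, 5.74 and 3.67 CPM at 10 ng/ml, against 1.12, 1.01 and 0.995 CPM, and 3.31, 1.49 and 1.16 CPM at 1 ng/ml, against 2.06, 1.69 and 1.09 CPM. It was the 1 of 7 theca markers that was called (14.3%, beside 6.3% of all genes tested). Its dose difference was 1.92 ± 0.43 (adjusted p = 0.011 by edgeR). That call ended without the block (adjusted p = 0.17) or without the untreated library numbered 4 or 5.

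Genes of cholesterol synthesis and uptake had mainly higher values. Of 25 genes tested 13 were higher and 0 lower (52%, beside 6.3% of all genes tested). Of the 25 values 24 were above 0, with a median of 0.44. The same list had a median change of 0.55 at 10 ng/ml and of 0.06 at 1 ng/ml. Without the block 9 of the 13 kept their call, and 7 to 12 did so when 1 library or number was left out, with the lowest count without the untreated library numbered 4.

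Lss, lanosterol synthase, which closes the sterol ring system (chr10:76531588-76557138, plus strand), was at 74.7, 92.1 and 80.2 CPM at 10 ng/ml, against 54.1, 47.4 and 45.3 CPM, and at 48.6, 53.4 and 51.6 CPM at 1 ng/ml, against 51.7, 49.9 and 51.5 CPM. The 3 libraries at 10 ng/ml exceeded all others, and the dose difference was 0.74 ± 0.11 (adjusted p = 0.00062 by edgeR). Hmgcs1, the HMG-CoA synthase of the same pathway, was at 363, 377 and 375 CPM at 10 ng/ml, against 260.3, 244 and 254 CPM, and at 246, 272 and 283 CPM at 1 ng/ml, against 243, 290.1 and 256 CPM, a dose difference of 0.53 ± 0.08 (adjusted p = 0.00076). Both were called in every fit that left out a library. Srebf2, the transcription factor that drives this pathway, differed by 0.42 ± 0.09 (adjusted p = 0.0083), a call that ended without the untreated library numbered 4. Nsdhl had a small difference (0.31 ± 0.09, adjusted p = 0.046) that lost its call in each of the 18 fits with a library or number left out.

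**Figure D3:**
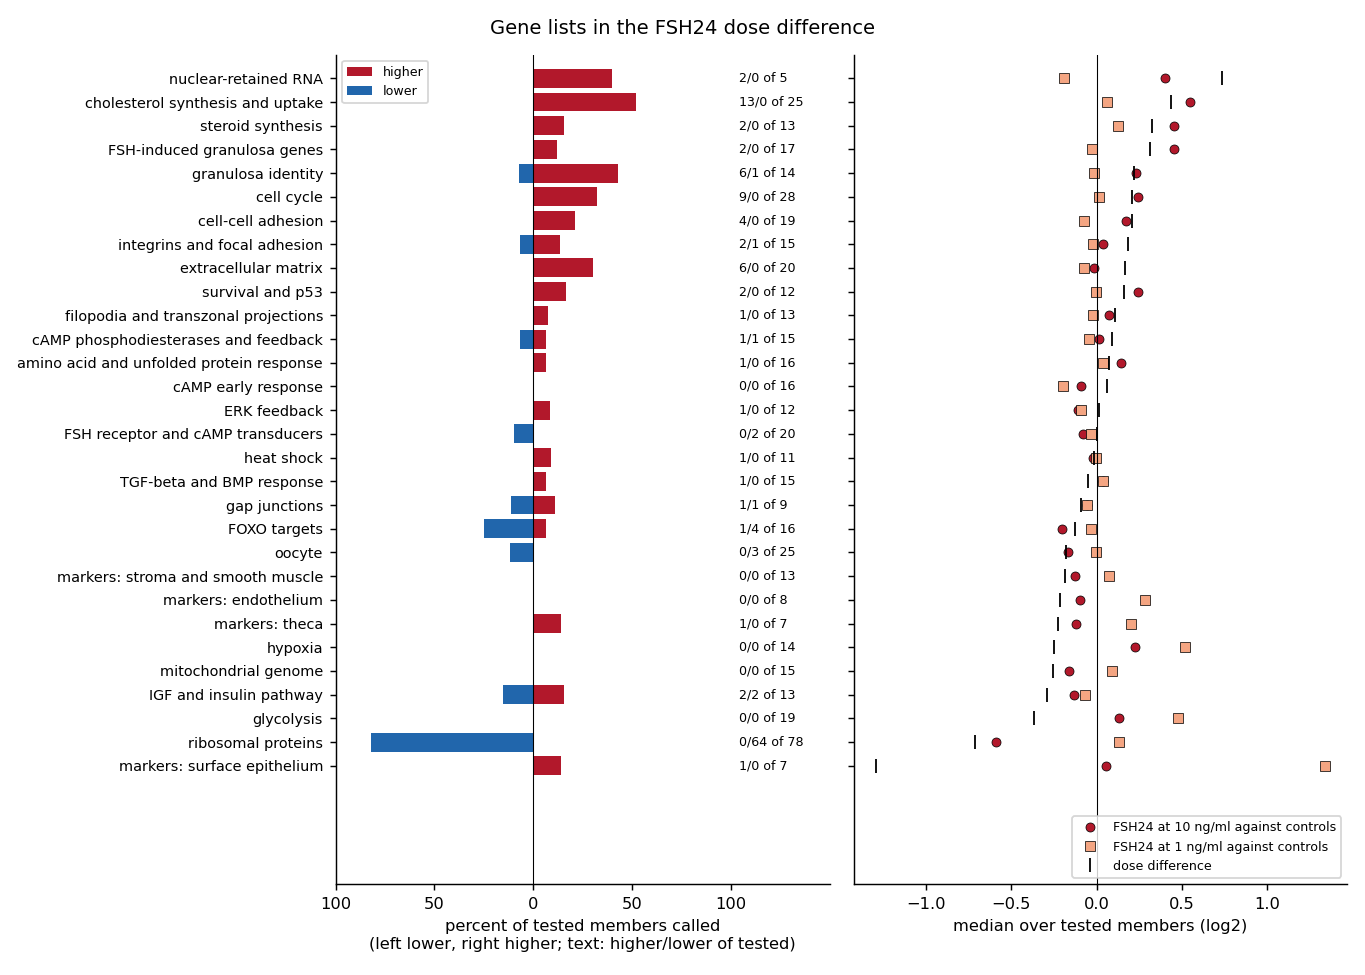
Gene lists with at least 5 tested members, ordered by median dose difference, with the percentage of tested members called higher or lower on the left and, on the right, the median log2 change with FSH24 at 10 ng/ml, at 1 ng/ml and the median dose difference. Ribosomal protein genes had 64 of 78 members called lower and cholesterol genes 13 of 25 called higher, beside 2.69% and 3.62% of all genes tested. The lists were chosen with earlier results of these data known.

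Genes of growth factor and FOXO signalling went both ways. Igf1, insulin-like growth factor 1, had 198, 188 and 202 CPM at 10 ng/ml, against 304, 327 and 296 CPM, and 273, 369 and 314 CPM at 1 ng/ml, against 332, 326 and 334 CPM. Only the libraries at 10 ng/ml were under 250 CPM, and the dose difference was -0.59 ± 0.10 (adjusted p = 0.0019 by edgeR). Igfbp5, an IGF-binding protein, had 1781, 1786 and 1794 CPM at 10 ng/ml, against 547, 395 and 281 CPM, and 659.7, 339 and 673 CPM at 1 ng/ml, against 546, 336 and 310.5 CPM. Its treated libraries at 10 ng/ml nearly coincided while the others spread, and the called difference of 1.69 ± 0.36 (adjusted p = 0.029) ended without the block (adjusted p = 0.13) and in 14 of 18 fits with a library or number left out. Of 13 genes of this pathway 2 were higher and 2 lower (30.8%, beside 6.3% of all genes tested).

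Among 16 FOXO target genes 4 were lower and 1 higher (31.2%, beside 6.3% of all genes tested), with a median of -0.13. Arrdc3, an arrestin-domain protein, had 51.0, 38.0 and 42.5 CPM at 10 ng/ml, against 156, 137 and 135 CPM, and 145, 157 and 120.1 CPM at 1 ng/ml, against 178, 171 and 208 CPM. The values at 10 ng/ml were the lowest. Those at 1 ng/ml were all below their own controls, a change that was not called, and overlapped the controls of the other set. The dose difference was -1.31 ± 0.22 (adjusted p = 0.0076 by edgeR). Pik3ip1, an inhibitor of phosphoinositide 3-kinase, differed by -0.73 ± 0.12, the ubiquitin ligase gene Fbxo32 by -0.80 ± 0.11 and Txnip, an inhibitor of thioredoxin and of glucose uptake, by -0.37 ± 0.08. Fbxo32 and Txnip lost their call without the block (adjusted p = 0.36 and 0.12). Sesn3, a stress-induced sestrin, was the higher one (0.60 ± 0.13), and its call ended without the untreated library numbered 2, 4 or 6 or the FSH24 library numbered 5 at 1 ng/ml. Bcl2, which blocks apoptosis, had 34.0, 35.5 and 36.8 CPM at 10 ng/ml, against 17.5, 24.3 and 21.5 CPM, and 20.5, 22.3 and 17.3 CPM at 1 ng/ml, against 19.1, 25.3 and 21.9 CPM, a dose difference of 0.90 ± 0.15 (adjusted p = 0.0014 by edgeR).

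**Figure D4:**
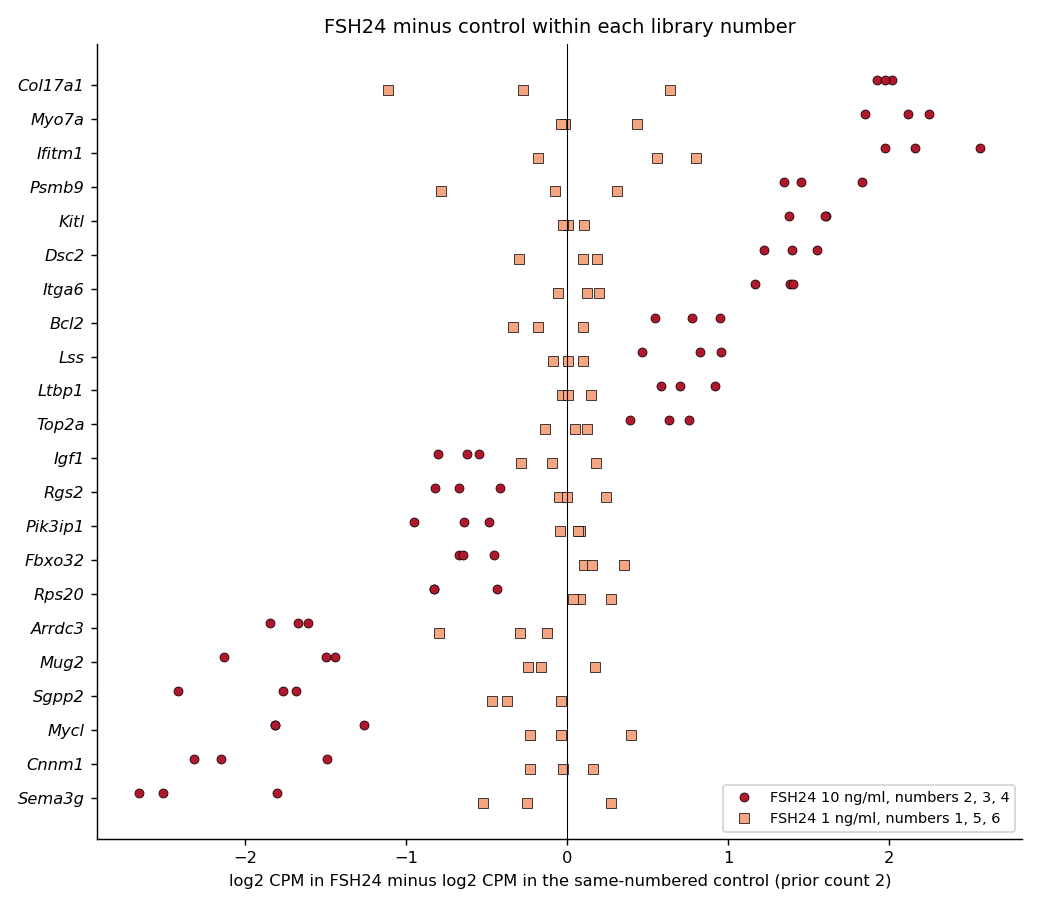
log2 CPM in FSH24 less log2 CPM in the untreated library of the same number (horizontal axis, prior count 2) for 22 genes, with circles for 10 ng/ml (numbers 2, 3 and 4) and squares for 1 ng/ml (numbers 1, 5 and 6). In every gene shown the circles and squares do not overlap, which the choice of genes called on these same values favours.

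Over all genes tested, the 3 paired differences at 10 ng/ml did not overlap the 3 at 1 ng/ml in 4329 genes (23.1%), and among the called genes in 1172 of 1180, a number that the call itself favours. Cell cycle genes had 9 of 28 members higher and 0 lower (32.1%, beside 6.3% of all genes tested), with a median of 0.21. Mki67, a marker of proliferating cells, had 666, 501 and 602 CPM at 10 ng/ml, against 344, 414 and 367 CPM, and 432, 339 and 423 CPM at 1 ng/ml, against 424, 363 and 469 CPM. Top2a, topoisomerase II alpha of dividing cells, differed by 0.58 ± 0.09 and the mitotic cyclin gene Ccnb2 by 0.56 ± 0.09. Mki67 alone of the 9 was called without the block (adjusted p = 0.037 by edgeR). It was not called when the FSH24 library numbered 5 at 1 ng/ml, the lowest of that group, was left out.

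Adhesion and matrix genes were mainly higher where called. Of 19 cell-cell adhesion genes 4 were higher and 0 lower (21.1%, beside 6.3% of all genes tested). Dsc2 was among them with Ctnnd1, which encodes the cadherin-binding p120 catenin (0.57 ± 0.10). Among 15 integrin and focal adhesion genes 2 were higher, Itga6 one of them, and 1 lower (20%). The lower one was the integrin gene Itgav (-0.42, adjusted p = 0.0076 by edgeR), a call that ended without the block. Of 20 extracellular matrix genes 6 were higher and 0 lower (30%), with a list median of 0.17. Thbs1, thrombospondin 1, had 2588, 2374 and 2649.9 CPM at 10 ng/ml, against 1837, 1743 and 1664 CPM, and 1956, 1684 and 1842 CPM at 1 ng/ml, against 1884, 2089.9 and 1856 CPM. It stood above all other libraries at 10 ng/ml only, with a dose difference of 0.63 ± 0.10 (adjusted p = 0.0010 by edgeR). The basement membrane genes Col18a1 (0.62 ± 0.11) and Lamb2 (0.51 ± 0.10) were also higher, each called in every fit that left out a library. Ltbp1, which holds latent TGF-beta in the matrix, had 251, 248 and 241 CPM at 10 ng/ml, against 168, 131 and 148 CPM, and 175, 140.2 and 128 CPM at 1 ng/ml, against 158, 143 and 128 CPM, a dose difference of 0.69 ± 0.11 (adjusted p = 0.00076, and 0.12 without the block).

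The gap junction genes Gja1 of granulosa cells and Gja4 of the oocyte had dose differences of 0.00 (95% interval -0.20 to 0.20) and -0.09 (-0.27 to 0.09) and were not called. The summed level of the 25 oocyte transcripts stood apart, as higher, only in the untreated libraries numbered 2, 3 and 4. The list had a median dose difference of -0.18. Of the 25 transcripts 3 were lower and 0 higher (12%, beside 6.3% of all genes tested), Oosp1 (-0.41 ± 0.08), Npm2 (-0.33 ± 0.09) and Khdc3 (-0.32 ± 0.08). None of the 3 was called without the block, and Npm2 and Khdc3 also lost their call without the FSH24 library numbered 6 at 1 ng/ml and without other single libraries. The oocyte growth factor genes Gdf9 (-0.13) and Bmp15 (-0.09) were not called.

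By the size of the difference, 12 genes in each direction were named. Myo7a, an unconventional myosin of actin protrusions, had 17.8, 14.5 and 18.9 CPM at 10 ng/ml, against 4.02, 3.94 and 3.89 CPM, and 5.54, 4.04 and 3.43 CPM at 1 ng/ml, against 4.08, 4.08 and 3.51 CPM, a dose difference of 1.96 ± 0.19 (adjusted p = 3.0e-05 by edgeR). The libraries at 10 ng/ml stood far above all others. Ifitm1, an interferon-inducible membrane protein with close paralogs, differed by 1.88 ± 0.28, the immunoproteasome subunit gene Psmb9 by 1.79 ± 0.34 and the hemidesmosomal collagen gene Col17a1 by 2.41 ± 0.49. Psmb9 lost its call without the block (adjusted p = 0.056). The calls for Rec8, Phyhip, Usp18, Cyp4f15, Cyp17a1, Mlph, Spns2 and Spink4 each ended when some single libraries were left out.

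On the lower side, Cnnm1, of the CNNM family of magnesium transport proteins, had 5.51, 8.72 and 6.49 CPM at 10 ng/ml, against 27.8, 24.7 and 29.1 CPM, and 23.0, 23.7 and 26.2 CPM at 1 ng/ml, against 27.1, 24.1 and 23.5 CPM. Sema3g, a secreted class 3 semaphorin, averaged 22.4 ± 4.74 CPM at 10 ng/ml, against 112 ± 14.7 CPM, and 108 ± 20.7 CPM at 1 ng/ml, against 121 ± 22.7 CPM (SD, n = 3 each). In both the libraries at 10 ng/ml were well below all others, with dose differences of -1.96 ± 0.19 and -2.17 ± 0.27 (adjusted p = 3.0e-05 and 0.0023 by edgeR). The MYC-family gene Mycl (-1.68 ± 0.20), the sphingosine-1-phosphate phosphatase gene Sgpp2 (-1.66 ± 0.17) and the protease inhibitor gene Mug2 (-1.63 ± 0.22) were also lower in every fit that left out a library.

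Angptl7 had the largest negative value and rested on 1 library. It was at 0, 0 and 12.6 CPM with FSH24 at 1 ng/ml, where the library numbered 6 is the one that held surface epithelium transcripts, and at no more than 0.642 CPM in any of the other 11 libraries. Its adjusted p of 0.0050 by edgeR became 0.35 without the block, and the call ended without that library, without the untreated library of that number and without the untreated library numbered 3. The calls for Dgkb, Edn1, Kcnmb4, Adamtsl2 and the ribosomal pseudogenes Rpl15-ps6 and Rps10-ps2 ended without some single libraries as well.

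Promoter windows of RefSeq (build GRCm38.p6, 250 bases before to 50 after a gene's start) were searched on both strands for the CRE TGACGTCA, its half-site TGACG, which the full CRE contains, the SF1 motif AAGGTCA, the FOXO motif TGTTTAC and the E-box CACGTG. Of 160 called named genes 106 had a window in use. The 6 windows that the naming rule selects, of Rec8, Col17a1, Cyp4f15, Angptl7, Dgkb and Edn1, held none of these motifs. The 4 shown here were chosen after their values were seen, from genes called in every fit that left out a library. Other named genes, such as Myo7a and Sema3g, met this as well. The 4 are thus examples and do not represent the called genes. They are those of Kitl, Col17a1, Ltbp1 (the first of 2 windows) and Cnnm1, with motif matches in capitals.
Kitl (chr10:100015571-100015870, plus strand): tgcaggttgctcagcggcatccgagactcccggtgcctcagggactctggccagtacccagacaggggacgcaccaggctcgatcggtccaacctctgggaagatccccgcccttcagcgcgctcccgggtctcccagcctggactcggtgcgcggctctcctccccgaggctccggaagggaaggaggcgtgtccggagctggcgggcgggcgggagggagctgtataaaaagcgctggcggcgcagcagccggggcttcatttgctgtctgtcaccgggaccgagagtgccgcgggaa
Col17a1 (chr19:47691993-47692292, minus strand): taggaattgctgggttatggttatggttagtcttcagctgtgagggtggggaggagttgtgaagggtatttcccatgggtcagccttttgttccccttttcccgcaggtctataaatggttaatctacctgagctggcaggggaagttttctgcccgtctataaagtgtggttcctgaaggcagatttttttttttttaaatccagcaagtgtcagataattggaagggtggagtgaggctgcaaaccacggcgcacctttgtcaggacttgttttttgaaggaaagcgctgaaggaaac
Ltbp1 (chr17:75005279-75005578, plus strand): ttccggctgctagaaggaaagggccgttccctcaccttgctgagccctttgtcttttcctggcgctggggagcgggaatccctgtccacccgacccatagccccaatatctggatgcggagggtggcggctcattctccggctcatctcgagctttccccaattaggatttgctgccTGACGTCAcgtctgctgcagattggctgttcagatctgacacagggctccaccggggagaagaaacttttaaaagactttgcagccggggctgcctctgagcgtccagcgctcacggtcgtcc
Cnnm1 (chr19:43440163-43440462, plus strand): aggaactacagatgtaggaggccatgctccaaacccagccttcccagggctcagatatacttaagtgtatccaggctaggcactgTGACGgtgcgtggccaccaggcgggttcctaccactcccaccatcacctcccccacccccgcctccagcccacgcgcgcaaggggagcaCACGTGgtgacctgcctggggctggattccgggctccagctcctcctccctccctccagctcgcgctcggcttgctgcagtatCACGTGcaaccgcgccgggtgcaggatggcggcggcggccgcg

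In the Ltbp1 window the match is a full CRE with its overlapping half-sites, and in that of Cnnm1 a half-site and 2 E-boxes, while those of Kitl and Col17a1 hold none of the searched letters. The full CRE was in 2.96% of 709 windows of genes with a higher value, 2.48% of 443 windows of genes with a lower one, 2.72% of 16045 windows of all genes tested and 1.79% of all 32851 windows. The half-site was in 27.5% of the windows of higher genes, 29.3% of those of lower genes and 28.2% of those of all genes tested. For SF1 the shares in windows of higher, lower and all tested genes were 3.1%, 2.93% and 3.56%, for FOXO 2.54%, 2.48% and 2.51%, and for the E-box 7.9%, 11.5% and 9.5%. Over all 32851 windows the shares were 20.8% for the half-site, 4.72% for SF1, 3.65% for FOXO and 7.15% for the E-box.

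Of all the lists, that of cytosolic ribosomal protein genes, which form the subunits of the ribosome, held the most genes with a lower value. Of 78 tested 64 were lower and 0 higher (82.1%, beside 6.3% of all genes tested). A value below 0 was found in 77, and the median was -0.72. The median change was -0.59 at 10 ng/ml, where 71 were called lower, beside 5.58% of all genes tested. At 1 ng/ml it was 0.13, and 0 were called by edgeR there, as for all genes tested. Rps20 had 114, 141 and 114 CPM at 10 ng/ml, against 203, 190.4 and 202 CPM, and 209, 221 and 194 CPM at 1 ng/ml, against 198, 183 and 189 CPM, a dose difference of -0.83 ± 0.10 (adjusted p = 0.00011 by edgeR). Rps27a differed by -0.94 ± 0.12, Rplp0 by -0.87 ± 0.14 and Rpl10a by -0.62 ± 0.08.

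The medians of the list by number were -0.73, -0.30 and -0.73 for numbers 2, 3 and 4 at 10 ng/ml and 0.01, 0.31 and 0.10 for numbers 1, 5 and 6 at 1 ng/ml. Number 3 moved less than the other two at 10 ng/ml, and the medians of the 2 doses did not overlap. Without the block 54 of the 64 kept their call, and 43 to 64 did so when a library or number was left out, with the lowest count without number 4. Ribosomal protein genes have many processed pseudogenes, and the division of shared reads among them by the counting is uncertain.

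Among other kinds of RNA, 2 nuclear-retained RNAs were called and no mitochondrially encoded gene was. The nuclear-retained RNA Neat1, a long noncoding RNA, had 58.2, 90.1 and 72.1 CPM at 10 ng/ml, against 38.2, 53.8 and 44.6 CPM, and 51.0, 39.5 and 43.5 CPM at 1 ng/ml, against 56.5, 44.2 and 52.1 CPM, a dose difference of 0.87 ± 0.10 (adjusted p = 6.8e-05 by edgeR, and 0.084 without the block). Of 5 nuclear-retained RNAs 2 were higher and 0 lower (40%, beside 6.3% of all genes tested). Their median was 0.73, and 3 of the 5 values were above 0. Meg3 was the other called one (1.24 ± 0.30), a call lost in 16 of 18 fits with a library or number left out and without the block. Of 15 mitochondrially encoded genes 0 were called, beside 6.3% of all genes tested, with a median of -0.26. The mitochondrial share of counts was 1.65% to 2.09% with FSH24 at 10 ng/ml, against 1.90% to 2.26% in its controls, and these ranges overlapped. The part of RNA composition in the ribosomal protein values was not tested.

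Glycolysis and hypoxia genes spread widely between the numbers, with 0 of 19 and 0 of 14 called by edgeR, beside 6.3% of all genes tested. The glycolysis median by number was -0.03, 0.95 and -0.40 for numbers 2, 3 and 4 at 10 ng/ml and 0.37, 0.41 and 0.71 for numbers 1, 5 and 6 at 1 ng/ml. Ldha, lactate dehydrogenase A, had 674, 829 and 339 CPM at 10 ng/ml, against 723, 400.1 and 547 CPM, and 588, 355 and 477 CPM at 1 ng/ml, against 454, 209 and 235 CPM. Number 3 was higher with FSH24 and number 4 lower, so the groups at 10 ng/ml overlapped, and the dose difference was -0.65 ± 0.53 (adjusted p = 0.58 by edgeR).

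Of 7 surface epithelium markers, which had a median of -1.29, only Krt8, a keratin of simple epithelia, was called (14.3%, beside 6.3% of all genes tested). Krt8 had 74.7, 66.9 and 65.9 CPM at 10 ng/ml, against 42.7, 28.6 and 38.9 CPM, and 39.0, 43.0 and 35.2 CPM at 1 ng/ml, against 36.0, 39.1 and 30.8 CPM, a dose difference of 0.77 ± 0.13 (adjusted p = 0.0019 by edgeR). The summed level of the 7 markers was 76.7 to 89.0 CPM at 10 ng/ml, against 37.8 to 52.5 CPM, and 47.8 to 83.5 CPM at 1 ng/ml, against 40.3 to 48.9 CPM, with the highest of the 1 ng/ml libraries numbered 6. The sum was thus higher in all 3 libraries at 10 ng/ml than in their controls, and Krt8 made up most of it in both. At 10 ng/ml against controls the list had a median change of 0.05. There 2 of the 7 were called higher and 0 lower, beside 8.02% and 5.58% of all genes tested. Of the 7 dose differences 3 were above 0. The part of the sum in the other values was not tested. Without the library numbered 6 at 1 ng/ml 1086 genes were called, of which 913 were among the 1180. Markers of stroma and smooth muscle (13 tested), endothelium (8) and immune cells (3) had 0 called genes by edgeR, beside 6.3% of all genes tested.

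FSH21, measured against the same untreated libraries, had a dose difference in 229 genes (1.22%), 116 higher (0.619%) and 113 lower (0.603%). Against controls FSH21 had 2819 called genes at 10 ng/ml and 226 at 1 ng/ml, of 18727 tested, beside 2547 and 0 for FSH24. Since both forms share their controls, the values are given side by side. The 677 genes with a higher FSH24 value had a median of 0.50 for FSH24 and 0.28 for FSH21, and the 503 with a lower one a median of -0.59 for FSH24 and -0.32 for FSH21. The genes were called on their FSH24 values, so these medians do not compare the sizes of the 2 forms. The difference between the forms in their dose difference, in which the controls cancel, was called for 0 genes by edgeR, with 1917 (10.2%) at an unadjusted p under 0.05 and 172 called by DESeq2.

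Kitl had a dose difference of 1.50 ± 0.08 for FSH24 and 1.05 ± 0.08 for FSH21, a difference between forms of 0.45 ± 0.08 (unadjusted p = 3.7e-05, adjusted p = 0.13 by edgeR). Itga6 had 1.23 ± 0.09 for FSH24 and 0.66 ± 0.09 for FSH21 (difference 0.57 ± 0.09, adjusted p = 0.13). Rps27a had -0.94 ± 0.12 for FSH24 and -0.31 ± 0.12 for FSH21 (difference -0.63 ± 0.12, adjusted p = 0.13). None of these differences between forms passed the adjustment. Cnnm1 was near equal, with -1.96 ± 0.19 for FSH24 and -1.93 ± 0.20 for FSH21. The 25 cholesterol genes had similar medians, 0.44 for FSH24 with 13 called higher and 0.46 for FSH21 with 10 called higher. Of all genes tested 3.62% and 0.619% were called higher for the 2 forms. The 78 ribosomal protein genes had medians of -0.72 for FSH24 and -0.30 for FSH21, with 64 and 1 called lower, beside 2.69% and 0.603% of all genes tested. Fshr was called for FSH21 (-0.70 ± 0.14, adjusted p = 0.017 by edgeR) and not for FSH24 (-0.25 ± 0.14), and the difference between forms was not called (adjusted p = 0.32).

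**Figure D5:**
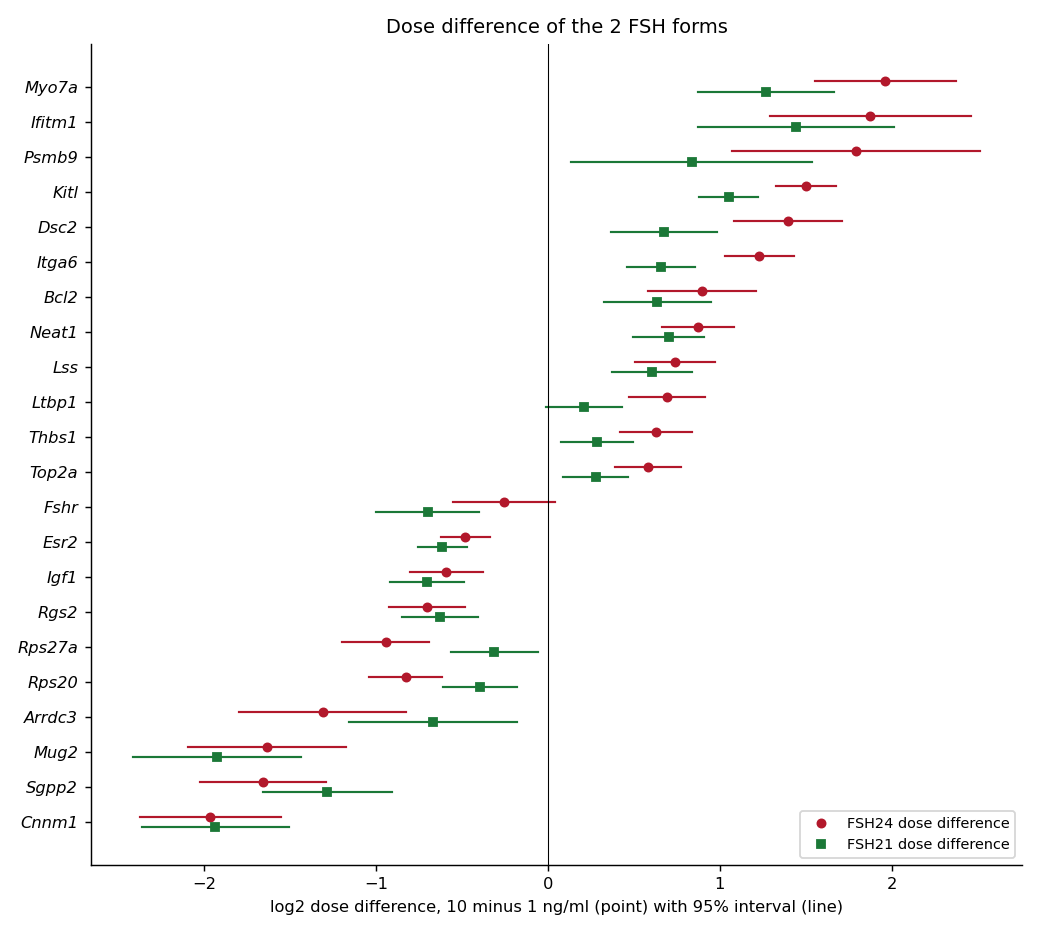
Dose difference in log2 units (horizontal axis) of 22 genes for FSH24 (circles) and FSH21 (squares), with 95% intervals from edgeR, all over the same untreated libraries. Both forms lie on the same side of 0 in each gene, with the FSH24 values farther out for Kitl, Itga6, Dsc2 and Rps27a and nearer to 0 for Fshr. All genes but Fshr were picked from those called on their FSH24 values, which favours larger FSH24 values.

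The untreated libraries of numbers 2, 3 and 4 against those of numbers 1, 5 and 6 gave 0 called genes by edgeR without the block, with 1020 (5.45%) at an unadjusted p under 0.05 and 1 called by DESeq2. The direct comparison of FSH24 at 10 ng/ml with FSH24 at 1 ng/ml, without controls and without the block, gave 1594 called genes (8.51%), 798 higher (4.26%) and 796 lower (4.25%). In the genes called higher in the dose difference the median of this direct comparison was 0.42 and that of the control sets -0.09. In those called lower the medians were -0.58 and 0.04.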

How the data were processed

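The deposited table held expected counts per gene made by the authors with RSEM, per the file headers, in 1 column per library, and STAR 2.7, the mm10 build, FastQC and bcl2fastq are listed in the submitters' processing notes. The RSEM version, annotation and use of strand are not given in the sources used here. All values were rounded, since 33.9% of those above 0 had a fractional part. Genes were kept with edgeR's filter at a minimum count of 10, which left 18727 of 56691 identifiers, and 17 listed genes fell below it. Library totals of 17512962 to 22509759 counts set the precision. Counts were scaled by TMM and fitted with edgeR 4.0.16 (quasi-likelihood, robust, number as block, 8 residual degrees of freedom) in R 4.3.3 with Benjamini-Hochberg adjustment at 0.05, after being tested on simulated data. limma 3.58.1 and DESeq2 1.42.0 served as alternatives, with other scalings, filters, sets of libraries and no block. Log2 CPM used a prior count of 2.

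Positions come from GENCODE release M21 (GRCm38, the assembly of mm10, counted from 1) and promoters from RefSeq. The genes named are the 12 largest positive and 12 largest negative called differences at a mean of at least 1 CPM, called members of 32 gene lists, a panel of genes and up to 5 genes from the test between forms, to which uncalled pathway genes were added. The members and lists were chosen with earlier results of these data known. Ribosomal protein genes, pseudogenes and Ifitm1 have near-identical copies among which reads can be split, and reads of overlapping antisense genes cannot be told apart where strand was not used. A few genes of the lists are counted but not reported here by name.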

Additional observations from a re-analysis of the deposited data

Results flagged for a closer look

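The change with FSH24 differed between its 2 doses in 1180 genes by edgeR's test of the difference itself, 677 with a higher value at 10 ng/ml and 503 with a lower one. The change with FSH21 differed between the same doses in 229 genes by the same test. The difference between the forms in their dose difference was called for 0 genes by edgeR and 172 by DESeq2. The counts of 1180 and 229 therefore do not by themselves rank the forms. Each dose was run in other library numbers, so dose and number set cannot be told apart beyond what each set's own controls give.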

How the results depend on the processing

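Of the genes called for the FSH24 dose difference, 0 had the opposite sign in any alternative run, but the balance of higher and lower genes was not stable, with 677 and 503 as reported, 372 and 396 with only the 12 libraries and 909 and 949 with no filter. Without the replicate block the FSH24 dose difference was called for 458 genes (226 higher, 232 lower), FSH24 at 10 ng/ml against controls for 1577 and the FSH21 dose difference for 51. Libraries of the same number correlated at 0.05 to 0.23 in their deviations from group means (median 0.15, 12 of 18 pairs over 0.1). Pairs of different number and group correlated at -0.17 to 0.09 (median -0.02, 0 of 117 pairs over 0.1). Libraries of a number thus shared some variation, though the correlations were low. The block follows the definition of the comparison. With only the 12 libraries the FSH24 dose difference had 768 genes (372 higher) and FSH24 at 1 ng/ml had 1. With no filter the counts were 1858 for the FSH24 dose difference (949 lower), 413 for FSH24 at 1 ng/ml, 834 for the FSH21 dose difference and 611 between forms. DESeq2 called 13 genes for FSH24 at 1 ng/ml, 353 for the FSH21 dose difference, 172 between forms and 1 between controls, limma-trend called 1 for FSH24 at 1 ng/ml and 1 between controls, and voom called 119 for the FSH21 dose difference. With a library or number left out, the FSH24 dose difference had 465 to 1293 genes (253 to 730 higher, 212 to 621 lower), FSH24 at 10 ng/ml 1216 to 2746, FSH24 at 1 ng/ml 0 to 3, the FSH21 dose difference 87 to 283, the forms 0 to 7, the controls 0 to 1 and FSH24 at 10 against 1 ng/ml 818 to 1639. The causes were not tested.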

Other observations

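Further matrix and junction genes had a dose difference. Col8a1, a short-chain collagen, had 111, 141 and 149 CPM with FSH24 at 10 ng/ml, against 48.7, 41.4 and 41.7 CPM in its controls, and 53.2, 62.1 and 68.5 CPM with FSH24 at 1 ng/ml, against 43.9, 57.5 and 31.6 CPM in its controls, a dose difference of 1.10 ± 0.26 (adjusted p = 0.038 by edgeR). That call ended in 12 of 18 fits with a library or number left out, among them those without the FSH24 library numbered 3 or 4 at 10 ng/ml, 1 or 5 at 1 ng/ml, or the untreated library numbered 1, 3, 4 or 5, and with only the 12 libraries. Lama1, a laminin chain of basement membranes, differed by 0.58 ± 0.12 and the proteoglycan gene Vcan by 0.40 ± 0.09. Gjc1, a connexin gene, was lower (-0.50 ± 0.13), and Tjp1, a tight junction scaffold, was higher (0.32 ± 0.07). Igf2r, the receptor that takes up insulin-like growth factor 2, was higher (0.48 ± 0.10), and the IGF-binding protein gene Igfbp7 was lower (-0.49 ± 0.12). The adjusted p values of these last 6 genes without the block were 0.20, 0.63, 0.18, 0.067, 0.084 and 0.24, none of them called.

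The paired log2 differences over all genes had interquartile ranges of 0.42, 0.40 and 0.45 for numbers 2, 3 and 4 at 10 ng/ml and of 0.28, 0.39 and 0.34 for numbers 1, 5 and 6 at 1 ng/ml. The median paired difference of the 14 hypoxia genes was 0.08, 1.23 and -0.34 for numbers 2, 3 and 4 at 10 ng/ml and 0.32, 0.37 and 0.82 for numbers 1, 5 and 6 at 1 ng/ml.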
